A study of Mus musculus with 15 samples.

Results

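Insulin-like growth factor 1 (IGF1), its receptor and the IGF binding proteins were followed in bulk RNA-seq of mouse bone marrow endothelial cells (BMECs), lung cells and bone marrow mesenchymal stromal cells (BM MSC). The 8 genes were Igf1, Igf1r, Igfbp2, Igfbp3, Igfbp4, Igfbp5, Igfbp6 and Igfbp7, taken by their symbols from the 44674 genes of the count table, and all 8 passed the filter on low counts. IGF1 is a secreted growth factor that acts through the receptor tyrosine kinase encoded by Igf1r. IGF binding proteins hold IGFs outside the cell and set how much ligand reaches the receptor, and proteases such as PAPP-A cut some of them and free the ligand. In vessels and bone these proteins are made by endothelial, stromal and osteoblastic cells, and Igfbp3 and Igfbp4 are known endothelial transcripts.

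The 15 libraries came from 8 conditions, all labelled wild type. P0 Emcn+ and P0 Emcn- BMECs (2 libraries each) were sorted by the surface sialomucin endomucin (Emcn) from the first, unpassaged (P0) culture of whole bone marrow, Lung cells (2) came from cultures of lung, and Emcn- BMECs were also taken at passages P1, P2 and P3 (2 each) and P4 (1, so no spread can be given). By the methods, these cells were CD45- and carried tdTomato from Tie2-CreERT2;Rosa26-tdTomato mice. Tamoxifen switched it on when the mice were a few weeks old, and experiments used them at several months of age. The lung cells were Emcn-, and all of these cells grew in EGM-2, a medium that itself contains an IGF1 analog. BM MSC (2) were CD45- tdTomato+ cells of Osx-Cre;Rosa26-tdTomato mice grown in MesenCult, so mouse line, Cre and medium differ between them and all BMECs. The labels give 4 batches. Batch d held replicate 1 of both P0 populations and of Lung, and batch a their replicate 2. Batch b held the P4 library and replicate 1 of the earlier passages P1 to P3, and batch c their replicate 2 together with both BM MSC libraries. The study's reporting notes describe the bulk RNA-seq samples of a condition as biologically independent and count cultures as independent when begun from different animals, but the labels tie no library to an animal. The p-values measure the spread between these libraries.

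Library totals ran from 9914620 counts (P0 Emcn- replicate 2) to 39718807 counts (P0 Emcn- replicate 1). Levels are given as CPM (counts scaled to the same library total), and between genes only as CPM per kb of exon. The 8 endothelial markers were Cdh5, Pecam1, Kdr, Tek, Tie1, Flt1, Emcn and Erg. Against the endothelial label, their summed level was 9533 to 11314 CPM in P0 Emcn+ BMECs but 75.7 to 312 CPM in P0 Emcn-. It was 208 to 642 CPM in Lung, 66.5 to 102 CPM in the passaged libraries and 40.0 to 346 CPM in BM MSC. None of the 8 was at 0 in all libraries of a condition. The largest parts in P0 Emcn+ were Cdh5 and Pecam1, with means of 5670 and 2369 CPM. Each marker but Flt1 had its highest mean in P0 Emcn+. Flt1 averaged 37.0 CPM there, 39.6 CPM in P0 Emcn- and 77.2 CPM in Lung. The summed level of 6 fibroblast markers (Pdgfra, Col1a1, Col1a2, Col3a1, Dcn and Lum) was 216 to 286 CPM in P0 Emcn+ BMECs and 3842 to 20046 CPM in every other library. Cdh5, the vascular endothelial cadherin, stood at 119 CPM in P0 Emcn- replicate 1 against 6.35 CPM in replicate 2, and at 156 CPM in BM MSC replicate 2 against 7.86 CPM in replicate 1. Conditions are therefore called by their labels below. In bulk RNA, fewer cells of a type and less RNA per cell cannot be told apart.

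Igfbp3, Igfbp4 and Igfbp5 are shown by their promoters because their transcripts fell together over the passages. Each line gives the 150 bases before the RefSeq start on the gene's strand (GRCm38.p6), at chr11:7213924-7214073 on the minus strand for Igfbp3, chr11:99041094-99041243 on the plus strand for Igfbp4 and chr1:72874866-72875015 on the minus strand for Igfbp5, whose window ends inside the gene body of GENCODE. Capitals mark the letters TATAAA.
Igfbp3: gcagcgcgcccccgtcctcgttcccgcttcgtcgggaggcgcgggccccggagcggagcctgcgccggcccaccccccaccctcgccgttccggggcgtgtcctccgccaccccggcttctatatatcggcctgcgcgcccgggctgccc
Igfbp4: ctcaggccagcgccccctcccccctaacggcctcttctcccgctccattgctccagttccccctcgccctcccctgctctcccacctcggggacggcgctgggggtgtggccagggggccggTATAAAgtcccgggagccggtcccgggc
Igfbp5: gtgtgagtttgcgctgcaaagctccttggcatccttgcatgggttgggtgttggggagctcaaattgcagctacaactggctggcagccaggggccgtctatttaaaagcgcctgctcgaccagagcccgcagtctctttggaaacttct
TATAAA was in the Igfbp4 window, 28 to 23 bases before the start, and on neither strand of the other windows. Only these exact letters were counted, and the Igfbp3 window holds the similar stretch tatatat and the Igfbp5 window tatttaaaa. Also searched on both strands were GGGCGG, the core of a GC box bound by Sp1, then CACGTG, an E-box that reads the same on both strands, and the forkhead motif TGTTTAC, and none was in these windows. Of 32851 mouse promoters, 7.57% held the TATA letters, 28.6% the GC box, 4.3% the E-box and 1.8% the forkhead motif within the same 150 bases. The GC content was 78.7% for Igfbp3, 73.3% for Igfbp4 and 55.3% for Igfbp5, beside a median of 54% over all promoters. All 8 genes are protein coding, and 3 of them lie beside another IGF binding protein gene. Igfbp2 (chr1:72824503-72852474, plus strand) and Igfbp5 (chr1:72857932-72874884, minus strand) are 5457 bases apart, and Igfbp3 (chr11:7206086-7213923, minus strand) lies 3539 bases from Igfbp1.

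Per kb of exon, Igfbp3, Igfbp4, Igfbp6 and Igfbp7 stood far above the ligand and the receptor. Igf1 ranged from 1.83 to 21.9 CPM per kb over the 15 libraries (median 4.22) and Igf1r from 4.00 to 10.5 (median 7.19). The medians were 380 CPM per kb for Igfbp3, 256 for Igfbp6, 225 for Igfbp7 and 140 for Igfbp4, but 5.66 for Igfbp5 and 0.467 for Igfbp2. Igfbp1, which the liver secretes into blood, had 1 count in all 15 libraries together.

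The make-up of the binding proteins differed between conditions. Igfbp3, the main carrier of IGF1 in serum, made up 36.8 to 59.4% of the summed CPM per kb of Igfbp1 to Igfbp7 in P0 Emcn+ BMECs and 59.5 to 65.3% at P1, but 4.95 to 5.62% in BM MSC. Igfbp2 made up 11.0 to 12.3% in BM MSC and at most 0.203% in any other library. Igfbp6, which prefers IGF2 over IGF1, made up 0.0952 to 0.628% in P0 Emcn+ BMECs, 11.5 to 13.8% in P0 Emcn- and 35.2 to 36.6% at P3. In 4 conditions the 2 libraries did not agree on the leading gene. In P0 Emcn-, Igfbp3 held 14.4% and Igfbp7 62.8% in replicate 1, and 47.8% and 19.8% in replicate 2. In P0 Emcn+ it was the other way round, with 59.4% and 28.1% in replicate 1 and 36.8% and 51.2% in replicate 2. In BM MSC, Igfbp6 led replicate 1 (25.8%, beside 24.0% for Igfbp7) and Igfbp7 led replicate 2 (40.9%). At P3, Igfbp6 led replicate 1 (36.6%, beside 35.4% for Igfbp3) and Igfbp3 led replicate 2 (39.7%). The summed level was lowest in BM MSC, at 329 and 555 CPM per kb, and 688 to 1929 CPM per kb elsewhere.

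**Figure D1:**
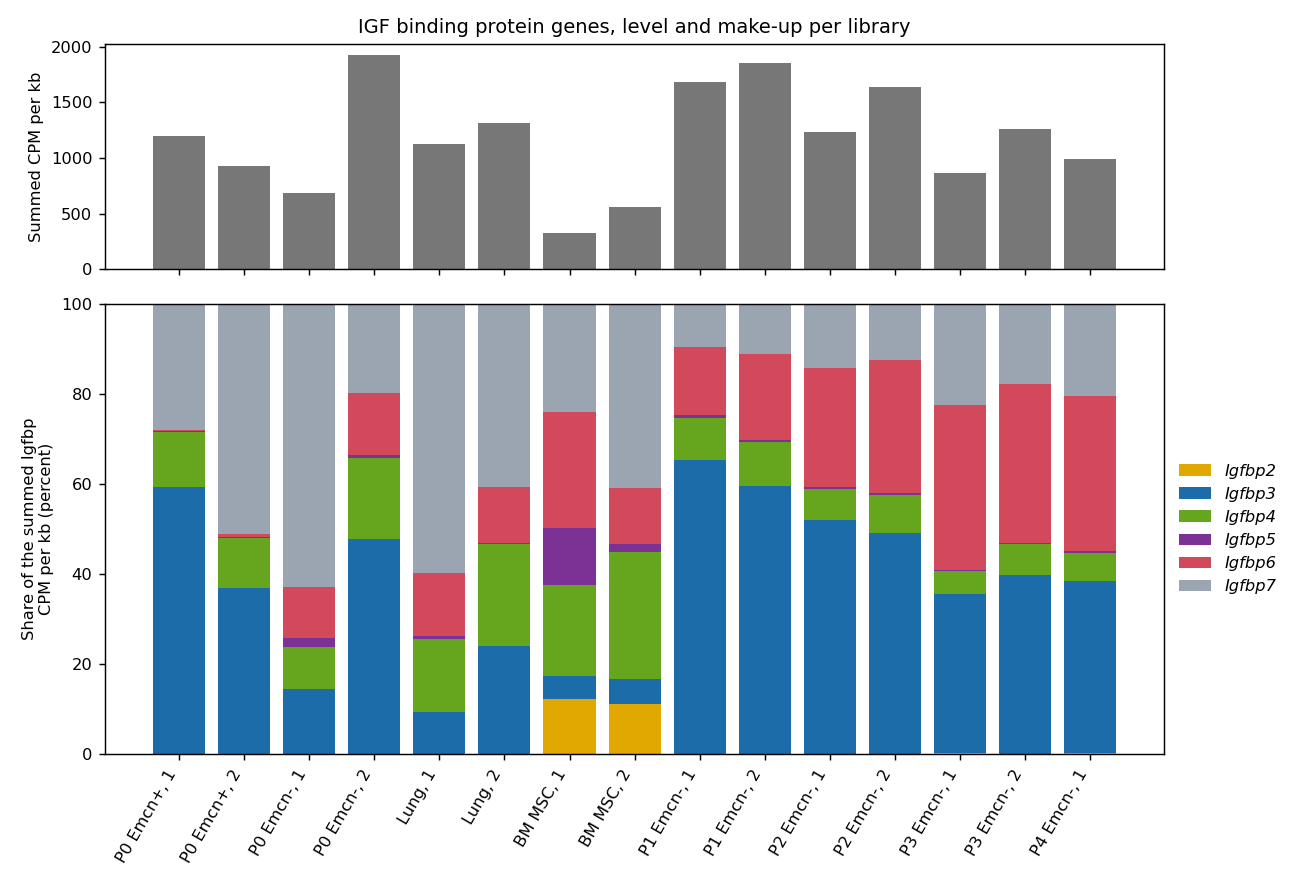
The upper bars give the summed level of Igfbp1 to Igfbp7 in CPM per kb of exon and the lower bars the percent of that sum held by each gene, for 1 library per bar (replicate number after the comma). Igfbp2 is visible in the BM MSC bars, where it held 11.0 to 12.3%, Igfbp6 is a thin strip in P0 Emcn+, and Igfbp3 holds 59.5 to 65.3% at P1 and 35.4 to 39.7% at P3.

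Replicates of several of these genes lay far apart. In P0 Emcn-, Igfbp3 was 9.28 times, Igfbp4 5.33 times and Igfbp6 3.38 times as high in replicate 2 as in replicate 1, while the median gene with more than 50 counts in every library (9981 genes) differed 1.21-fold. In BM MSC, Igfbp5 was 3.81 times as high in replicate 1 and Igfbp7 2.88 times as high in replicate 2, beside a median gene difference of 1.10-fold. Igf1r, in contrast, differed by 1.03 to 1.18-fold between the replicates of every replicated condition except Lung, where it differed 1.84-fold.

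**Figure D2:**
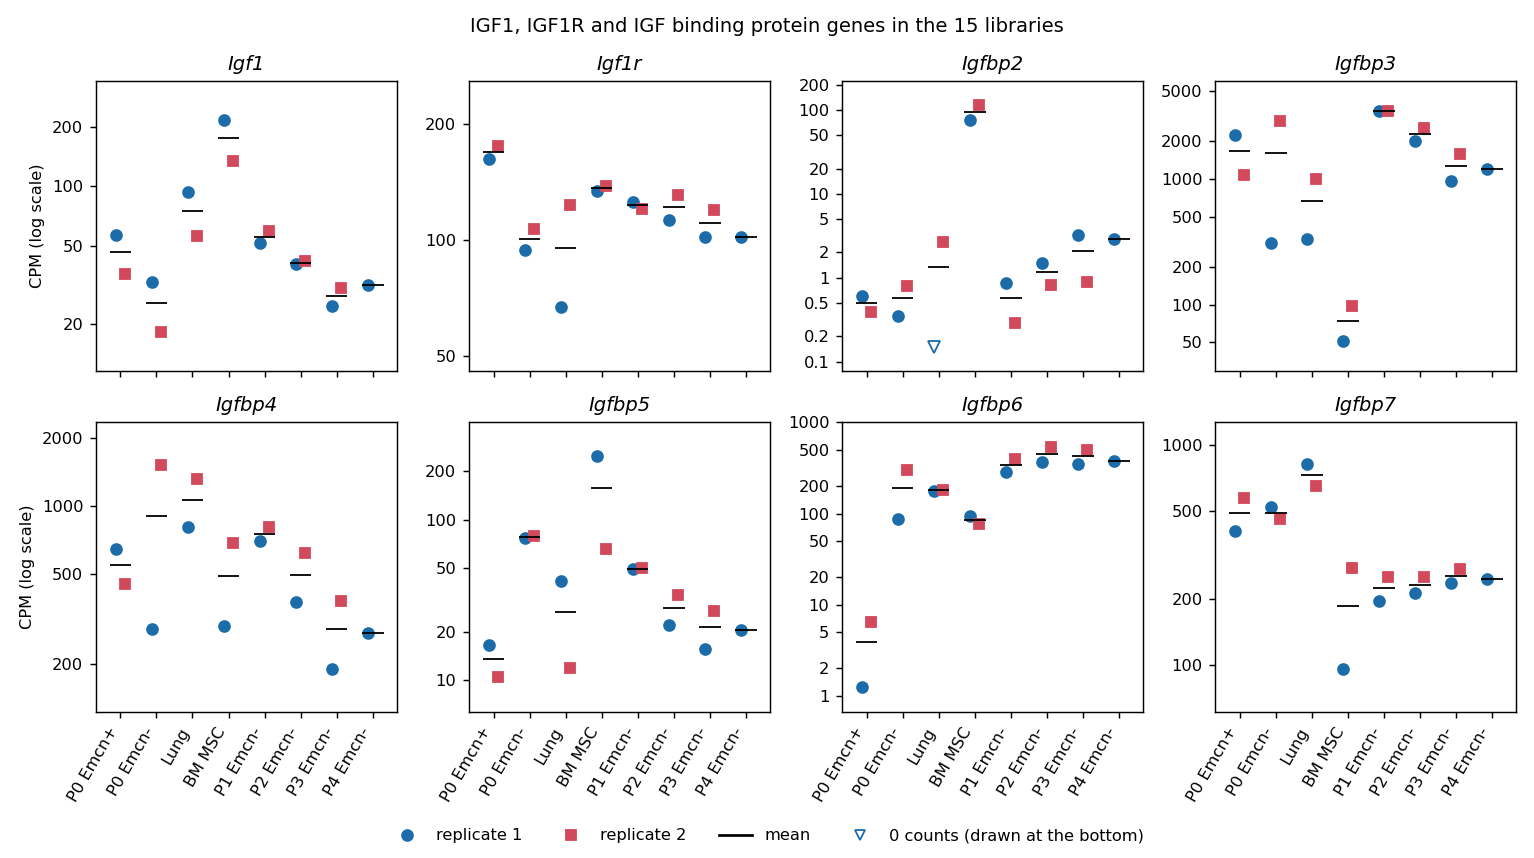
CPM of the 8 genes on log axes, 1 panel per gene with its own scale, 1 point per library (circles replicate 1, squares replicate 2) and a bar at the mean of each condition. BM MSC stand apart for Igfbp2 at 75.0 and 113 CPM, P0 Emcn+ for Igfbp6 at 1.27 and 6.45 CPM, and the P0 Emcn- points of Igfbp3 lie far apart at 311 and 2887 CPM.

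The first question was how Emcn+ and Emcn- BMECs sorted from P0 cultures differed. Igfbp6 and Igfbp5 were lower in Emcn+ BMECs, and no member was called higher. A gene was called where edgeR's quasi-likelihood test gave an adjusted p (Benjamini-Hochberg, over all genes) under 0.05 and the absolute log2 fold change was above 1.5, and 2 of the 8 members were called against 19.2% of the 19401 genes tested (7.79% higher and 11.4% lower in Emcn+). Igfbp6 stood at 1.27 and 6.45 CPM in P0 Emcn+ and at 87.8 and 297 CPM in P0 Emcn-. Both Emcn+ libraries lay far below both Emcn- libraries, a 49.8-fold difference of the means (log2 fold change -5.62 ± 0.77 (SE), n = 2 and 2, adjusted p = 0.000356). Within batch d it was -6.00 and within batch a -5.48 on the log2 scale. It was called without any 1 of these 4 libraries, but its size moved, to -4.84 and -7.18 without P0 Emcn+ replicates 1 and 2 and to -6.23 and -4.49 without P0 Emcn- replicates 1 and 2.

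Igfbp5, a binding protein held in bone matrix, stood at 16.6 and 10.4 CPM in P0 Emcn+ and at 76.4 and 79.5 CPM in P0 Emcn-. The groups did not overlap, and the means differed 5.77-fold (log2 fold change -2.49 ± 0.68 (SE), n = 2 and 2, adjusted p = 0.0173 by edgeR). The within-batch values were -2.16 and -2.90 on the log2 scale. The call was lost without P0 Emcn+ replicate 1 (adjusted p = 0.0562) or replicate 2 (adjusted p = 0.112).

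Igf1r stood at 162 and 176 CPM in P0 Emcn+ and at 94.4 and 107 CPM in P0 Emcn-. Both Emcn+ libraries were the highest of all 15, and the difference of 1.68-fold had an adjusted p of 0.0209 in edgeR's test but lay under the fold change limit (log2 fold change 0.78 ± 0.22 (SE), n = 2 and 2). Igf1 stood at 56.7 and 35.7 CPM in P0 Emcn+, against 32.6 and 18.2 CPM for P0 Emcn- (log2 fold change 0.89 ± 0.36 (SE), adjusted p = 0.0869 by edgeR). The Igf1 groups did not overlap, and the test did not pass. Igf1 is also a macrophage transcript, and the summed level of 8 macrophage markers (Ptprc, Adgre1, Csf1r, Itgam, Cd68, Cd14, Lyz2 and Fcgr1) was 544 to 548 CPM in P0 Emcn+ and 190 to 228 CPM in P0 Emcn-, with none at 0 in both libraries of either group. The part of these markers and of the fibroblast and endothelial markers in the differences was not tested.

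Igfbp3 and Igfbp4 gave opposite directions in the 2 batches. Igfbp3 stood at 2225 and 1066 CPM in P0 Emcn+ and at 311 and 2887 CPM in P0 Emcn-, so Emcn+ was above Emcn- by 2.88 on the log2 scale within batch d, and the value within batch a was -1.41. Igfbp4, which PAPP-A cuts, stood at 646 and 455 CPM against 285 and 1521 CPM, with within-batch values of 1.22 and -1.72. Without P0 Emcn- replicate 2, Igfbp3 was called higher in Emcn+ (log2 fold change 2.44, adjusted p = 0.034 by edgeR). Igfbp7, a secreted protein of the vessel wall that binds IGFs weakly, stood at 407 and 573 CPM against 522 and 461 CPM, and Igfbp2 at or under 0.807 CPM in all 4 libraries.

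Other genes of the pathway were taken from lists of ligands, receptors and carriers (7 genes, 4 tested), proteases of binding proteins and their inhibitors (6, all tested) and signalling downstream of the receptor (15, 14 tested). In P0 Emcn+ against P0 Emcn-, 2 were called lower and 0 higher on the first list, 3 lower and 0 higher on the second, and 5 lower and 1 higher on the third. Over all genes tested, 11.4% were called lower and 7.79% higher. The median log2 fold changes of the lists were -1.79, -2.40 and -1.10, beside -0.06 over all genes tested. Pappa, the gene of the IGFBP4 protease PAPP-A, stood at 4.15 and 2.59 CPM in P0 Emcn+, against 142 and 134 CPM for P0 Emcn- (log2 fold change -5.31 ± 0.26 (SE), adjusted p = 8.57e-07 by edgeR). The other proteases called lower were Htra1 (log2 fold change -3.00) and Adam12 (-2.53).

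The insulin receptor substrates, the adaptors that carry the signal from IGF1R to PI3 kinase, were also lower in Emcn+ BMECs. Irs1 stood at 3.55 and 4.17 CPM in P0 Emcn+ and at 55.8 and 85.5 CPM in P0 Emcn-, and Irs2 at 3.80 and 5.26 CPM against 66.1 and 68.8 CPM. The groups lay far apart for both, with 18.3-fold (Irs1, log2 fold change -4.16 ± 0.31 (SE), adjusted p = 8.25e-06 by edgeR) and 14.9-fold (Irs2, -3.87 ± 0.25 (SE), adjusted p = 3.50e-06) differences of the means. Irs3 (-6.02), the receptor inhibitor Grb14 (-4.53) and Akt2 (-2.17) were called lower as well. Irs3 lay at 0.0634 to 0.0773 CPM in P0 Emcn+, where 3 counts were 0.0951 and 0.116 CPM, so the size of its fold change is uncertain. Foxo1, a transcription factor that this pathway keeps out of the nucleus, was the 1 gene called higher, at 180 and 174 CPM against 35.2 and 64.9 CPM (log2 fold change 1.86 ± 0.28 (SE), adjusted p = 0.000554 by edgeR). Other signalling genes had an adjusted p under 0.05 below the fold change limit, and the share of all genes that did so is not given here. Of these, Grb2 (0.69) and Akt1 (0.46) had higher levels in Emcn+ BMECs and Pik3r1 (-1.31), Shc1 (-1.24), Grb10 (-0.96) and Foxo3 (-0.96) lower ones. Pik3ca and Gab1 did not pass (log2 fold changes 0.09 and -0.06). Among the ligands and carriers, Igf2 (3.20 against 14.7 CPM on average, log2 fold change -2.11) and Igfals (0.0193 against 0.428 CPM on average) were called lower. The Igfals call rests on very few counts, at 0 to 0.0386 CPM in P0 Emcn+ and 0.202 to 0.655 CPM in P0 Emcn-. In the P0 Emcn- libraries 3 counts were 0.0755 and 0.303 CPM. The insulin receptor gene Insr had 1.19 and the IGF2 scavenger receptor gene Igf2r -1.48 with adjusted p-values of 0.00186 and 0.00321 by edgeR, under the fold change limit.

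**Figure D3:**
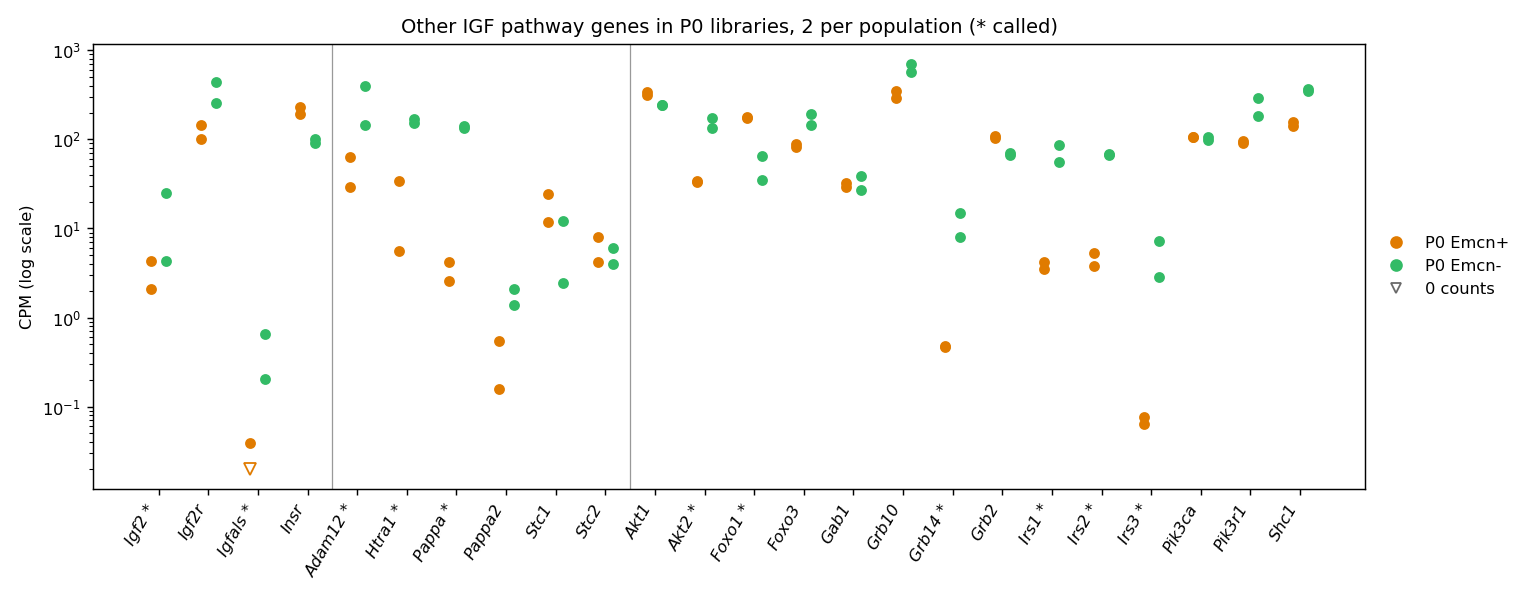
CPM on a log axis of the tested genes of the 3 pathway lists (separated by lines) in the 2 P0 Emcn+ and the 2 P0 Emcn- libraries, 1 point per library, with an asterisk on genes called. Irs1, Irs2 and Pappa lie at 2.59 to 5.26 CPM in P0 Emcn+ and at 55.8 to 142 CPM in P0 Emcn-, and Foxo1 lies the other way round.

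The next comparison set Emcn- cells of lung cultures against Emcn- cells of marrow cultures. Igf1 was the 1 member called, against 3.83% of all genes (2.13% higher and 1.70% lower in Lung). It stood at 93.7 and 55.7 CPM in Lung and at 32.6 and 18.2 CPM in P0 Emcn-. Both Lung libraries were above both marrow libraries (2.94-fold on the means, log2 fold change 1.62 ± 0.37 (SE), n = 2 and 2, adjusted p = 0.0328 by edgeR), and the values within batches d and a were 1.60 and 1.66 on the log2 scale. Fitted with the compared groups alone, the adjusted p was 0.164, and leaving out Lung replicate 1 or P0 Emcn- replicate 2 gave 0.200 and 0.127. The macrophage markers summed to 20.7 to 22.6 CPM in Lung and to 190 to 228 CPM in P0 Emcn-, but Cd14 averaged 4.96 CPM against 4.81 CPM. Their part in the Igf1 difference was not tested.

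Igfbp5 was lower in Lung in both batches (41.3 and 11.9 CPM against 76.4 and 79.5 CPM), without passing the test (log2 fold change -1.47 ± 0.66 (SE), adjusted p = 0.276 by edgeR). Igfbp7 was at its highest of all conditions in Lung, at 815 and 647 CPM, without passing the test (log2 fold change 0.64 ± 0.38 (SE), adjusted p = 0.429 by edgeR). The remaining 5 members were not called either. Of the pathway lists, 1 gene was called, beside 3.83% of all genes. Stc2, which encodes a stanniocalcin that inhibits PAPP-A, was higher in Lung, at 12.0 and 19.9 CPM against 5.97 and 4.03 CPM (log2 fold change 1.71 ± 0.37 (SE), adjusted p = 0.0269 by edgeR).

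BM MSC differed from P0 Emcn- BMECs in 3 of the 8 members, against 18.7% of all genes (11.3% higher and 7.45% lower in BM MSC). No P0 library shares a batch with BM MSC, so batch, medium, mouse line and cell type cannot be told apart. Igfbp2 stood at 75.0 and 113 CPM in BM MSC, against 0.352 and 0.807 CPM for P0 Emcn- (log2 fold change 7.65 ± 1.44 (SE), adjusted p = 0.00307 by edgeR, and 6.94 without P0 Emcn- replicate 1). Over the 13 other libraries it never passed 3.25 CPM, and it was at 0 counts in Lung replicate 1. There 3 counts, taken as an approximate upper limit for a count of 0, would be 0.0828 CPM. This limit covers counting error only.

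Igf1 was also highest in BM MSC, at 217 and 135 CPM, above every other library (6.93-fold over P0 Emcn-, log2 fold change 2.88 ± 0.38 (SE), adjusted p = 0.000484 by edgeR). The macrophage markers summed to 24.0 to 34.7 CPM in BM MSC, with Fcgr1 at 0 in both libraries, below the 190 to 228 CPM of P0 Emcn-. Cd14 averaged 5.52 CPM against 4.81 CPM. The part of these markers in the Igf1 difference was not tested. Igfbp3 was lowest in BM MSC, at 51.0 and 97.7 CPM against 311 and 2887 CPM in P0 Emcn-. The call was negative (log2 fold change -4.34 ± 0.95 (SE), adjusted p = 0.00649 by edgeR), and it was lost without BM MSC replicate 1 (adjusted p = 0.0545) or when the compared groups were fitted alone (adjusted p = 0.0721). Its size rested on the P0 Emcn- libraries, at -2.01 without replicate 2 and -5.20 without replicate 1. Igfbp7 stood at 95.5 and 275 CPM in BM MSC, below both P0 Emcn- libraries, with an adjusted p of 0.023 by edgeR and a log2 fold change of -1.33 under the limit. Without BM MSC replicate 2, the log2 fold change of Igfbp7 was -2.25.

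A batch is shared between BM MSC and the replicate 2 libraries of P1 to P3. Against the mean of P1, P2 and P3, 5 members were called, against 14.2% of all genes (8.42% higher and 5.81% lower in BM MSC). Igfbp2 (log2 fold change 6.27 ± 0.81 (SE)), Igfbp5 (2.27 ± 0.48) and Igf1 (2.06 ± 0.27) were higher in BM MSC, and Igfbp3 (-4.95 ± 0.93) and Igfbp6 (-2.32 ± 0.59) were lower, with adjusted p-values of 0.000409, 0.00542, 0.000412, 0.00305 and 0.0141 by edgeR. Within batch c, the log2 differences from the single P1, P2 and P3 libraries were 6.53 to 7.99 for Igfbp2, 1.49 to 2.42 for Igf1 and 1.30 to 2.17 for Igfbp5. They were -5.65 to -4.54 for Igfbp3 and -2.77 to -2.26 for Igfbp6. Each of the 5 thus kept its direction in the shared batch, while medium and mouse line still differed.

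Of these calls, 2 were lost when a single BM MSC library was left out. Igfbp5 stood at 249 CPM in replicate 1 but at 65.3 CPM in the other library, and without replicate 1 it was not called (log2 fold change 0.96, adjusted p = 0.224 by edgeR), while without replicate 2 it was 2.95. Igfbp6 stood at 94.3 and 76.1 CPM against 284 to 538 CPM at P1 to P3, and it was not called without replicate 1 (adjusted p = 0.073) or replicate 2 (adjusted p = 0.111). The 5 osteolineage markers (Runx2, Sp7, Alpl, Bglap and Ibsp) summed to 211 and 126 CPM in the 2 BM MSC libraries and to 18.7 to 22.9 CPM at P1 to P3. In P0 Emcn- they summed to 51.9 CPM in replicate 1 and 185 CPM in replicate 2, so the latter lay within the BM MSC range. Ibsp alone spanned 2.06 to 137 CPM in P0 Emcn- and 14.0 to 22.7 CPM in BM MSC. The part of these markers in the differences was not tested.

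On the pathway lists, BM MSC against P0 Emcn- had 1 higher and 0 lower of the 4 tested ligands, receptors and carriers, 1 higher and 0 lower of the 6 proteases and inhibitors, and 2 higher and 1 lower of the 14 signalling genes. Over all genes tested, 11.3% were called higher and 7.45% lower. The list medians were 0.93, 0.24 and 0.01 on the log2 scale, beside 0.01 over all genes. Igf2, the other IGF ligand, stood at 113 and 93.4 CPM in BM MSC against 4.36 and 25.1 CPM for P0 Emcn- (log2 fold change 2.95 ± 0.64 (SE), adjusted p = 0.00611 by edgeR). Grb14 (3.70), the protease gene Pappa2 (4.86) and Irs1 (1.88) were higher and Irs2 (-1.83) was lower. Against P1 to P3, Igf2 (2.52), Pappa2 (3.67), Grb14 (2.81) and Stc1 (4.47) were called higher and Irs3 (-2.05) lower, 1 gene of the first list, 2 of the second and 2 of the third. In that comparison 14.2% of all genes were called.

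**Figure D4:**
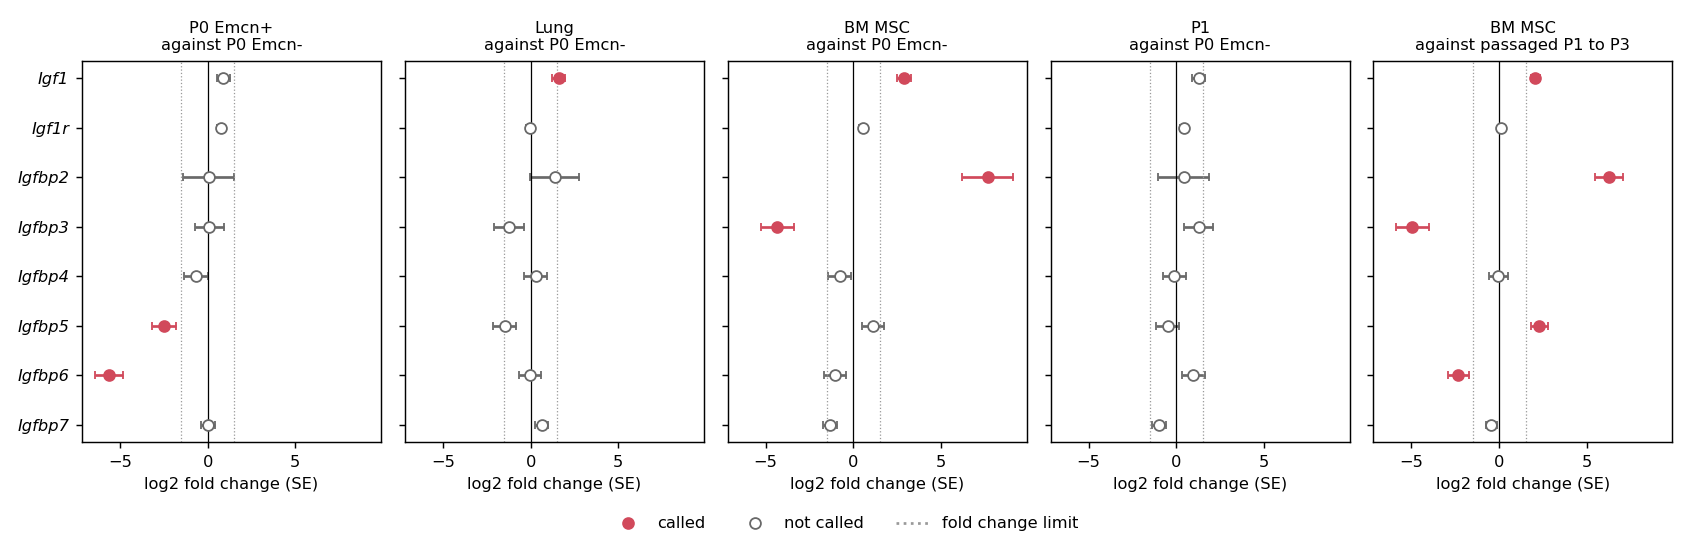
Log2 fold changes (points) with their SE (bars) from edgeR for the 8 genes in 5 comparisons, filled where called, with dotted lines at the fold change limit of 1.5. Igfbp6 at -5.62 in P0 Emcn+ and Igfbp2 at 7.65 and 6.27 in BM MSC lie farthest from 0, and no point is filled for P1 against P0 Emcn-.

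Passaging was followed first from P0 to P1. None of the 8 members was called, against 8.84% of all genes (5.77% higher and 3.07% lower at P1), with 2 members at an unadjusted p under 0.05, of which 1 also had an adjusted p under 0.05 below the fold change limit. This was Igf1, at 51.8 and 59.0 CPM at P1 against 32.6 and 18.2 CPM at P0 (log2 fold change 1.27 ± 0.37 (SE), adjusted p = 0.0402 by edgeR). Igfbp7 stood at 195 and 250 CPM against 522 and 461 CPM, with an adjusted p of 0.0982 (log2 fold change -0.99 ± 0.38 (SE)). Igfbp3 was at 3438 and 3454 CPM at P1, above both P0 libraries (log2 fold change 1.27 ± 0.84 (SE), adjusted p = 0.310). DESeq2's Wald test called 0 members too. P0 and P1 share no batch, so batch and passage cannot be told apart. Without P0 Emcn- replicate 1, Igf1 was called (1.76), and without P0 Emcn- replicate 2, Igfbp3 was called (3.60). On the pathway lists 1 gene was called, beside 8.84% of all genes. Stc1, which encodes the other stanniocalcin, stood at 0.803 and 0.395 CPM at P1 against 12.1 and 2.42 CPM at P0 (log2 fold change -3.46 ± 0.79 (SE), adjusted p = 0.0167 by edgeR).

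From P1 to P4, Igfbp3, Igfbp4, Igfbp5 and Igf1 fell and Igfbp2 and Igfbp7 rose. Slopes were fitted over the 7 passaged libraries with the batch as a term and called at an adjusted p under 0.05 with no fold limit, and 6 of the 8 members were called against 22.2% of the 16690 genes tested (11.4% rising and 10.8% falling). Igfbp3 stood at 3438 and 3454 CPM in P1 libraries, 2004 and 2513 in P2, 956 and 1568 in P3 and 1191 in P4. Every later library was below both P1 libraries, and the slope was -0.54 ± 0.09 (SE) on the log2 scale per passage (adjusted p = 0.0105 by edgeR). Relative to the P1 library, the P3 library lay at -1.80 within batch b and at -1.12 within batch c on the log2 scale.

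Igfbp4 stood at 699 and 805 CPM in P1 libraries, 376 and 618 in P2, 191 and 382 in P3 and 275 in P4 (slope -0.48 ± 0.10 (SE), adjusted p = 0.0186 by edgeR). Igfbp5 stood at 49.0 and 50.1 CPM in P1 libraries, 22.1 and 34.0 in P2, 15.5 and 27.1 in P3 and 20.6 in P4 (slope -0.42 ± 0.10 (SE), adjusted p = 0.0236). Replicate 1, of batch b, lay below replicate 2 at P2 and P3 for Igfbp3, Igfbp4 and Igfbp5. The P4 library was above the P3 library of its batch for these genes and for Igf1, so none of them fell further after P3 there. Igf1 stood at 51.8 and 59.0 CPM in P1 libraries, 40.0 and 41.8 in P2, 24.7 and 30.6 in P3 and 31.6 in P4 (slope -0.32 ± 0.07 (SE), adjusted p = 0.0208). Over the same libraries the macrophage markers went from 69.6 to 223 CPM in sum at P1 to 11.6 CPM at P4, and their part in the Igf1 slope was not tested.

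Igfbp7 went from 195 and 250 CPM at P1 to 235 and 272 CPM at P3 and 246 CPM at P4, a slope of 0.11 ± 0.03 (SE) that is small beside the difference between the batches (adjusted p = 0.0276 by edgeR). Igfbp2 went from 0.863 and 0.287 CPM at P1 to 3.25 and 0.888 CPM at P3 and 2.91 CPM at P4 (slope 0.67 ± 0.16 (SE), adjusted p = 0.0231), which were 8 to 115 counts per library. Both calls were lost without the batch term (adjusted p = 0.268 for Igfbp7 and 0.0689 for Igfbp2). Igfbp6 stood at 284 to 538 CPM in all 7 libraries (slope 0.14 ± 0.06 (SE), adjusted p = 0.0988), and Igf1r at 102 to 131 CPM (slope -0.06 ± 0.04 (SE), adjusted p = 0.227). The slope calls rest on few libraries. Without P1 replicate 1 no member was called, and 1 was called, Igfbp3, without P1 replicate 2 or without P3 replicate 2. The slope of Igfbp5 was -0.24 without P1 replicate 1, and the call of Igfbp7 was also lost without either P2 library (adjusted p = 0.0511 and 0.0549 by edgeR).

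**Figure D5:**
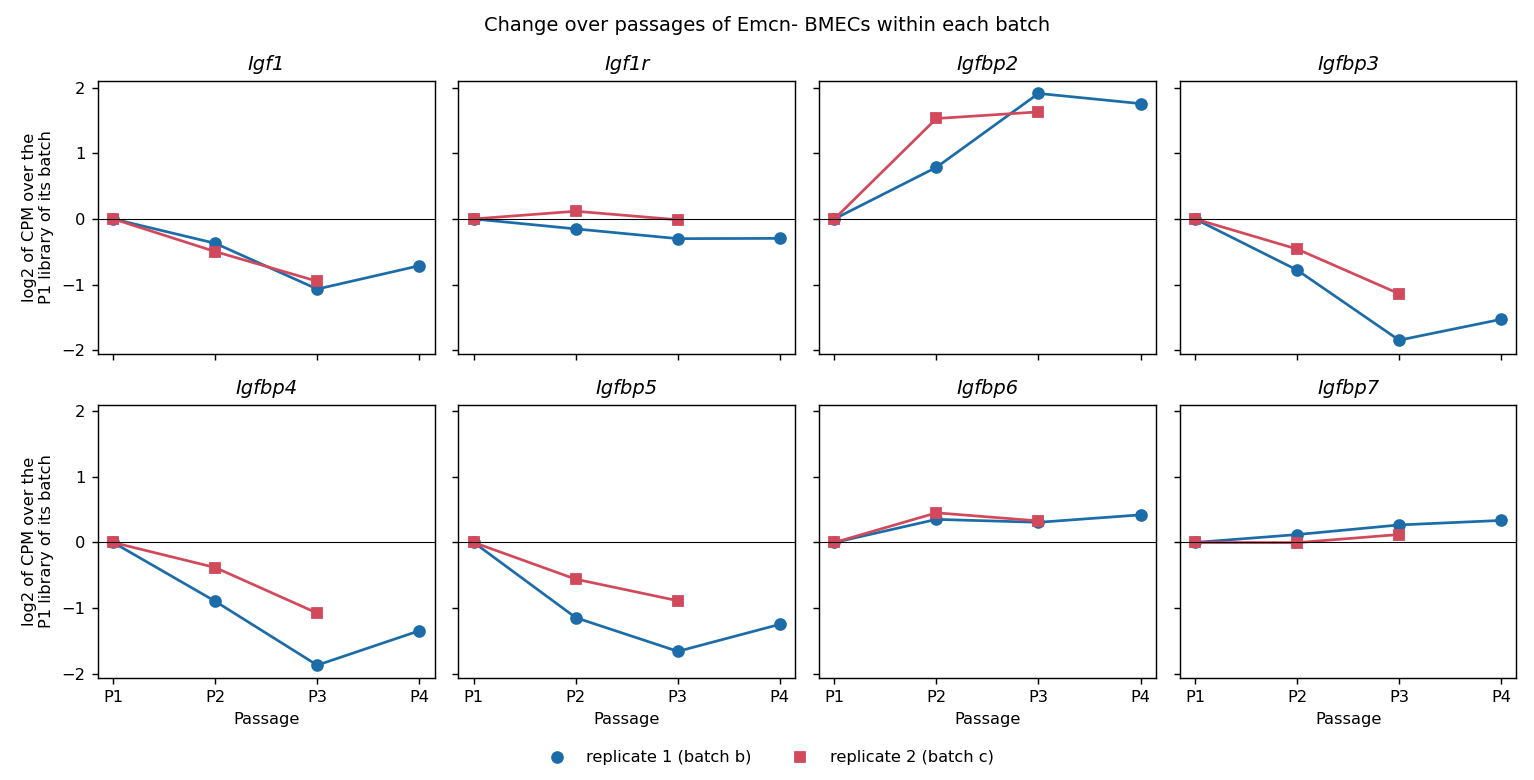
Log2 of the CPM of each passaged library over the P1 library of its own batch, 1 panel per gene, circles and squares for replicates 1 (batch b) and 2 (batch c) at passages P1 to P4. The lines of Igfbp3, Igfbp4 and Igfbp5 drop farther in batch b than in batch c, those of Igf1 drop alike, and those of Igf1r, Igfbp6 and Igfbp7 stay near 0.

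On the pathway lists, 2 of the 4 tested ligands, receptors and carriers fell over the passages and 0 rose, 1 of the 6 proteases and inhibitors rose and 1 fell, and 2 of the 14 signalling genes fell and 0 rose. Over all genes tested, 11.4% rose and 10.8% fell. Igf2 went from 22.6 and 25.4 CPM at P1 to 10.0 and 13.8 CPM at P3 and 12.2 CPM at P4 (slope -0.34 ± 0.07 (SE), adjusted p = 0.015 by edgeR). Htra1, a secreted serine protease that cuts IGF binding proteins, went from 211 and 206 CPM to 71.9 and 95.7 CPM and 66.5 CPM (slope -0.55 ± 0.06 (SE), adjusted p = 0.00453). Grb10 (-0.33), Insr (-0.23) and Irs2 (-0.12) fell less steeply, and Stc2 (0.48) rose. The list medians were -0.255, 0.02 and -0.0046 per passage, beside -0.00256 over all genes.

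In order of their means, the conditions were often not separated by their libraries. A gap is named here only where every library of the conditions ranked above lay over every library of those ranked below. For Igf1 the gaps lay below BM MSC, which stood above all other conditions, and below P2, and from Lung down to P2 each condition overlapped the next. For Igf1r, P0 Emcn+ came first and BM MSC second, both with a gap below, and the remaining 6 each overlapped the next. For Igfbp2 the 1 gap lay below BM MSC. For Igfbp3, P1 stood alone at the top and BM MSC alone at the bottom, with no gap among the 6 conditions between them. For Igfbp4 there was no gap at all, because P0 Emcn- spanned 285 to 1521 CPM. For Igfbp5 the gaps lay below P0 Emcn-, which followed BM MSC, and below P1, and the 5 conditions below P1 had no gap among them. For Igfbp6 the 1 gap lay above P0 Emcn+, and P0 Emcn- replicate 1 (87.8 CPM) lay within the 76.1 to 94.3 CPM of BM MSC. For Igfbp7 the gaps lay below Lung and below P0 Emcn+, the passaged and BM MSC libraries all being lower.

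Across the 15 libraries, which share batches and replicates, the members did not follow one another. Pearson's r of log2 CPM over the 28 pairs of members ran from -0.67 (Igf1 and Igfbp3) to 0.51 (Igf1 and Igfbp2), given as a description without a test. Among 15170 named genes, the pattern most like Igfbp6 was that of Aldh1a1 (r = 0.98), a retinaldehyde dehydrogenase, then Efs and Ankrd35. Most like Igfbp3 were Smim24 (r = 0.97), Ramp2, a co-receptor of adrenomedullin, and Tle4. Most like Igf1r were Bcr (r = 0.95), Mfsd9 and Mon1b, and most like Igfbp2 were Hoxa13 (r = 0.95), Kcnh5 and C1qtnf3, of which Hoxa13 averaged 0.502 and Kcnh5 0.079 CPM. The others were Uba7, Adgra2 and Phb for Igfbp7 (0.94 for the first), Bsn, Smo and Serf1 for Igfbp5 (0.91), AI838599, Hipk4 and Lgals4 for Igfbp4 (0.89), and Ak5, Tbc1d23 and Cop1 for Igf1 (0.88). Spearman's rank correlation was lower for some pairs, at 0.79, 0.72 and 0.61 for Ak5, Tbc1d23 and Cop1 with Igf1 and 0.69 for Mfsd9 with Igf1r. It was higher for others, such as AI838599 with Igfbp4 (0.92).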

How the data were processed

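The 15 bulk libraries were made from mouse total RNA with the KAPA RNA HyperPrep kit. By the methods, the first batch of biological replicates was sequenced on another Illumina instrument than the later ones. The methods do not say which batch of the labels this was, so instrument and batch cannot be told apart. By the methods and the labels, the authors ran the nf-core RNASeq pipeline, mapped reads to GRCm38 with STAR, quantified transcripts with Salmon on an Ensembl annotation and merged them per gene with tximport. The authors deposited estimated counts as whole numbers for 44674 genes, without normalization, and the rounding is not described. Coordinates and exon lengths came from GENCODE M21 (GRCm38, 44118 identifiers matched) and promoters from RefSeq (GRCm38.p6, all 8 members matched).

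Members, gene lists, motifs, tests and alternatives were chosen with earlier results of these data known. The 8 members, every called gene of the pathway lists and the 3 genes most like each member were named. The quasi-likelihood model of edgeR 4.0.16 in R 4.3.3 took all 15 libraries and had 1 coefficient for each condition (TMM factors, filterByExpr with minimum count 10 and minimum total 15), which left 7 residual degrees of freedom. The slope used the 7 passaged libraries with batch and passage. Counting noise alone did not account for the differences between replicates (chi-square 42.5 to 141 for each degree of freedom). Totals ran from 9914620 to 39718807, so 3 counts were 0.0755 to 0.303 CPM.

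By the labels, libraries with the same number share a batch among P0 and Lung, and likewise among P1 to P3. Their deviations from the condition means correlated at 0.139 to 0.451 with a shared batch and at -0.104 to 0.127 without one. Alternatives were DESeq2 1.42.0 with and without ashr 2.2.63, RLE factors, other filters, a replicate block, the compared groups alone, each library left out and, chosen after seeing the data, total counts without scaling factors. The fits were tested on simulated data.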

Additional observations from a re-analysis of the deposited data

How the results depend on the processing

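The counts of members called were 2, 1, 3, 0 and 5 with RLE factors, total counts, no filter, the replicate block and DESeq2's Wald test, in the order P0 Emcn+, Lung, BM MSC and P1 against P0 Emcn- and BM MSC against P1 to P3. For Lung the count was 0 with DESeq2 and ashr (Igf1 at 1.47, under the fold change limit) and 0 with only the compared groups, a fit with fewer libraries. The slope count of 6 was 4 without the replicate block and 7 by DESeq2. Pairing by the block changed no other call of a member.

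Leaving out 1 library gave counts of 1 to 3 (P0 Emcn+), 0 to 1 (Lung), 2 to 4 (BM MSC), 0 to 1 (P1), 3 to 5 (BM MSC against P1 to P3) and 0 to 6 (slope), the lone library being assumed to vary like the rest. It turned the direction of members not called, whose log2 fold changes then ranged as follows. Against P0 Emcn-, in P0 Emcn+ they were -0.63 to 0.53 for Igfbp2, -0.76 to 2.44 for Igfbp3, -1.41 to 0.98 for Igfbp4 and -0.23 to 0.26 for Igfbp7. In Lung they were -0.49 to 0.34 for Igf1r, -6.82 to 2.49 for Igfbp2 (the lowest against 0 counts, and so no bound), -2.18 to 1.13 for Igfbp3, -0.45 to 1.94 for Igfbp4 and -0.64 to 1.09 for Igfbp6. In BM MSC they were -1.55 to 0.84 for Igfbp4, -0.19 to 1.79 for Igfbp5 and -1.71 to 0.025 for Igfbp6, and at P1 -0.64 to 0.98 for Igfbp2 and -0.87 to 1.53 for Igfbp4. For BM MSC against P1 to P3 they were -0.74 to 0.42 for Igfbp4 and -1.36 to 0.10 for Igfbp7.

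Other reversals were of values near 0, and their cause was not tested. For P0 Emcn+ these were Igfbp2 with the replicate block (-0.024), DESeq2 (-0.13), ashr (-0.028) and only the compared groups (-0.048), and Igfbp7 with total counts (-0.0063). With the replicate block, Igfbp6 in Lung was 0.34 and Igfbp4 at P1 0.15, and with total counts Igfbp4 in BM MSC against P1 to P3 was 0.054.

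Depth limits Igfbp2 outside BM MSC, at 0 to 115 counts per library. Over all genes, the calls with only the compared groups were 2396 rather than 3630 for BM MSC, 145 rather than 743 for Lung and 968 rather than 1715 for P1 against P0 Emcn-, and 2059 rather than 3707 for the slope without the block.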
